A study of Arabidopsis thaliana with 53 samples.

Results

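The 8 genes described here are regulators of the stomatal lineage of Arabidopsis thaliana, 8 of the 27444 protein-coding genes on chromosomes 1 to 5. They were chosen by name for their known role: the transcription factor genes SPCH (AT5G53210), MUTE (AT3G06120), FAMA (AT3G24140), SCRM (AT3G26744, also called ICE1) and SCRM2 (AT1G12860), the receptor-like protein gene TMM (AT1G80080), and the peptide genes EPF1 (AT2G20875) and EPF2 (AT1G34245). A peak of accessible chromatin was assigned to a gene when its summit lay inside the gene or within 1500 bp of either end. By that rule 230 peaks of 18 peak lists lay at the 8 genes, and merging those that overlapped gave 18 regions.

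Stomata are pores in the leaf epidermis, each bordered by a pair of guard cells. SPCH, MUTE and FAMA are related bHLH transcription factors that act one after the other: SPCH starts the lineage with asymmetric divisions, MUTE ends those divisions and commits the cell, and FAMA sets the last division and guard cell identity. SCRM and SCRM2 are bHLH partners of all 3, TMM is a receptor-like protein that acts with ERECTA-family kinases, and EPF1 and EPF2 are secreted peptides that limit how many stomata form and where.

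Open chromatin was mapped with ATAC-seq (the Tn5 transposase cuts DNA that is not packed away) in nuclei sorted by FACS from plants with a fluorescent histone (H2B-EGFP) under markers specific to a cell type. The promoter behind each marker is not given in the sources used here. The titles of the root and whole seedling samples name no cell type. All plants were Col-0. The 7 guard cell groups were the abf1/2/3/4 mutant with abscisic acid (ABA) for 4 h and its control, WT with ABA for 4 h and for 24 h and its control, and WT at 100 ppm and at 1000 ppm CO2 for 4 h. The mesophyll groups were WT with ABA for 4 h and its control. The seedling root groups were abf1/2/3/4 with ABA for 45 min and 2 h and its control, and WT with ABA for 45 min, 2 h and 4 h and its control; for the mutant group titled 2 h another label field gives 4 h. The whole seedling groups were WT with ABA for 4 h and its control, both labelled 4 h. ABA was used at 50 µM with ethanol as the vehicle, from agar plates for seedlings and by spraying rosettes for mature plants. The mutant label names ABF1 to ABF4, bZIP factors that act in ABA signalling.

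Each of the 18 groups (53 samples, 2 to 4 a group) had 1 deposited peak list, so no difference below has a replicate check and none was tested. The lists held 15345 to 27514 peaks, with medians of 5.74 to 9.73 in −log10 p and of 348 to 406 bp in width. Rank 1 is the peak with the highest −log10 p of its list. Read depth is unknown, and a peak can be missing from a list because of depth, of the share of cells that carry the open site, or of how open it is in each, which cannot be told apart here.

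The marker genes of the sorted cells were looked up by the same rule. All 4 guard cell markers had peaks in the guard cell WT control list (summed width 10462 bp), whereas MYB60, SCAP1 and TGG1 had none in the mesophyll control list and SCAP1 and TGG1 had none in the root and seedling control lists. Mesophyll markers did not separate the sorts by presence: all 4 had peaks in each control list of WT, with a summed width of 8771 bp in guard cells, 11054 bp in mesophyll, 4274 bp in root and 6232 bp in seedlings. Of 8 root markers, 4 had a peak in the guard cell control list, 4 in mesophyll, 6 in root and 4 in seedlings. Of 5 markers of other leaf epidermis cells, 2 had a peak in guard cells (GL1, GL3 and PDF1 had none), 1 in mesophyll, 4 in root and 2 in seedlings, and of 3 vascular markers 2, 1, 2 and 2 did in the same order. What other cell types add to the peaks below was not tested.

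All 8 genes had a peak in each of the 7 guard cell lists with the 1500 bp window. At MUTE the nearest guard cell summits lay 505 to 568 bp from the gene, so a 500 bp window leaves none there. The shares of all genes were 68.4% in the abf1/2/3/4 ABA list, 69.1% in its control, 71.5% in the WT control, 65.8% after 4 h and 68.1% after 24 h of ABA, 67.6% at 100 ppm and 69.1% at 1000 ppm CO2, so presence alone is common. The mesophyll control list had peaks at 5 of the 8 genes (57.1% of all genes) and the mesophyll ABA list at 6 (55.2%). The 3 abf1/2/3/4 root lists each had peaks at 6 genes, where 64.8% of all genes did in the control, 62.2% after 45 min and 61.3% after 2 h of ABA. The 4 WT root lists each had peaks at 7, where 73.9% did in the control and 64.8%, 75.5% and 75.8% did after 45 min, 2 h and 4 h. Both seedling lists had peaks at 6 (59.5% of all genes with ABA and 59% in the control). Missing in root were SCRM2 in every list and FAMA in the mutant lists.

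The genes differed in how strong their peaks were. FAMA, SCRM and EPF2 had a peak in the highest 10% of every guard cell list, 3 of 8 genes. Of all genes 10% had one in the abf1/2/3/4 ABA list, 10.2% in its control, 10.8% in the WT control, 9.33% after 4 h and 9.87% after 24 h of ABA, 9.78% at 100 ppm and 10.1% at 1000 ppm CO2. In each of the 11 other lists EPF2 was the one member with such a peak. The shares of all genes were 7.38% with ABA and 7.92% in the control of mesophyll, 9.4%, 8.73% and 8.64% in the mutant root (control, 45 min, 2 h), 12.8%, 9.56%, 13.6% and 12.7% in WT root (control, 45 min, 2 h, 4 h), and 8.34% with ABA and 8.29% in the control of seedlings. The genes fell into groups by tissue. SPCH, MUTE, SCRM, TMM and EPF2 had a peak in all 18 lists (5 of 8, against 41.3% of all genes). FAMA and EPF1 had a peak in all 7 guard cell lists and in neither mesophyll list (2 of 8, against 9.08%). SCRM2 had one in all 7 guard cell lists and in no root list (1 of 8, against 1.38%). In root FAMA and EPF1 differed, as EPF1 had a peak in every root list and FAMA in the 4 WT root lists alone. These groups were not among the planned comparisons and describe the members' own patterns, so the shares beside them do not test for an excess.

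**Figure D1:**
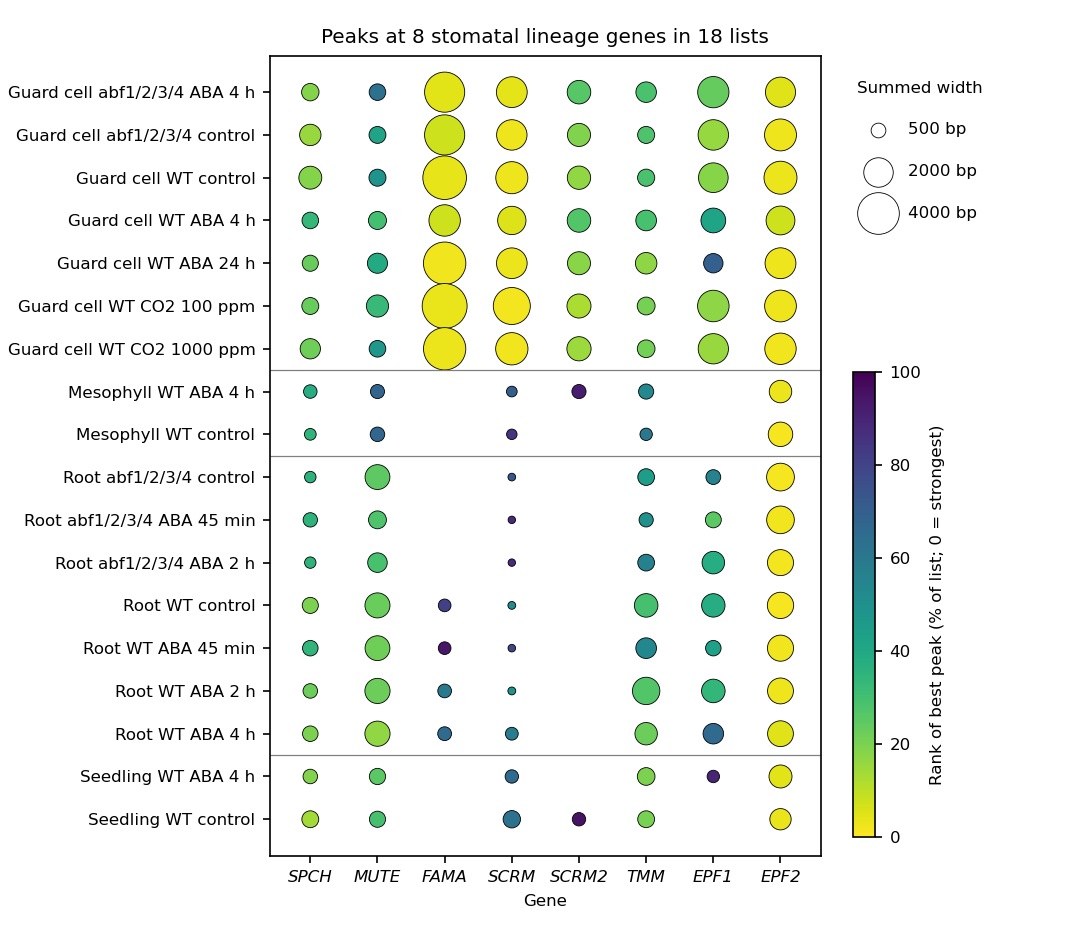
Each circle is 1 gene (horizontal axis) in 1 of 18 peak lists (vertical axis). Its area stands for the summed peak width in bp and its colour for the rank of the gene's best peak as a percent of the list (0 is the strongest), and no circle means no peak. FAMA and SCRM have large circles in the guard cell lists and small or no circles in the mesophyll, root and seedling lists.

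FAMA, the last of the 3 lineage factors, had the widest open chromatin of the 8 genes in guard cells. Its summed peak width was 3708 bp in abf1/2/3/4 with ABA, 3714 bp in the abf1/2/3/4 control, 4381 bp in the WT control, 2276 bp in WT with ABA for 4 h, 4145 bp with ABA for 24 h, 4652 bp at 100 ppm CO2 and 4123 bp at 1000 ppm CO2. Only 43 of the 19618 genes with a peak in the guard cell WT control list reached 4381 bp (0.219%), where the median gene had 606 bp. No peak lay at FAMA in the mesophyll, abf1/2/3/4 root or seedling lists.

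The FAMA peaks fell into 2 regions at the ends of the gene. The first, chr3:8713841-8716270, was found in guard cell lists alone. Its commonest summit, at base 8714460 in 4 lists, lay 658 bp outside the lower-coordinate end of the gene, in a stretch that is also within 1500 bp of AT3G24130. The second, chr3:8717901-8720124, ran from inside the gene past the higher-coordinate end and was a single peak of 1849 to 2222 bp in every guard cell list, ranking 438 to 1549. Its guard cell summits lay 1203 to 1338 bp beyond that end, toward the edge of the 1500 bp window. The 4 WT root lists had a narrow peak within the same stretch. Its width was 372 bp in the control list, 370 bp at 45 min, 432 bp at 2 h and 441 bp at 4 h of ABA. Its rank was between 16308 and 20842, in the weaker part of those lists. Set against the root control, the guard cell control had 11.8-fold the width at FAMA, and 35 of 17559 genes with a peak in both lists reached that ratio (0.199%).

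SCRM, the broadly used partner of the lineage factors, had strong peaks at both ends in guard cells. Its summed width there was 1850 bp at the lowest, 2185 bp in the median list and 3158 bp at the highest, and its best rank was between 344 and 946. The mesophyll lists had 265 bp with ABA and 254 bp in the control, at ranks 10820 and 13542. The abf1/2/3/4 root lists had 128 to 137 bp, the WT root lists 133 to 380 bp, and the seedling lists 412 bp with ABA and 697 bp in the control. The guard cell values lie above all others without overlap.

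The best SCRM peak in each guard cell list had its summit at base 9835282 of chromosome 3, 3 bp beyond the higher-coordinate end of the gene. That same base was the summit in 10 of the 18 lists, so the weak peaks of mesophyll and of ABA-treated seedlings stood at the same place as the strong guard cell peak. Most root lists lacked a peak at the gene end. In 6 of the 7 root lists the one peak was 726 to 765 bp beyond that end, and a 177 bp peak at the gene end was listed with ABA for 4 h. The farther site was not particular to root. Both seedling lists and several guard cell lists had a separate peak there, and in the other guard cell lists the gene-end peak ran across it. The other end of the gene was open in guard cells in chr3:9831730-9833090, at 719 to 1280 bp and ranks 675 to 4835, and apart from the guard cell lists only the seedling control list had a peak there, of 318 bp. This stretch is also within 1500 bp of AT3G26742. The guard cell control had 9.33-fold the width of the mesophyll control at SCRM, which 81 of 14724 genes reached (0.55%), and 16.8-fold that of the root control, which 8 of 17559 genes reached (0.0456%).

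SCRM2, the paralog of SCRM, had a single peak with nearly the same width in all guard cell lists. It was 1279 bp in abf1/2/3/4 with ABA, 1230 bp in the abf1/2/3/4 control, 1254 bp in the WT control, 1274 bp with ABA for 4 h, 1220 bp with ABA for 24 h, 1333 bp at 100 ppm and 1350 bp at 1000 ppm CO2. It ranked 2444 to 4869. In 5 of the 7 lists the summit was base 4384498 of chromosome 1, 194 bp inside the lower-coordinate end. Elsewhere a peak was listed in the ABA-treated mesophyll (462 bp, rank 14120 of 15345) and in the seedling control (414 bp, rank 15681 of 16480). Both had their summit at base 4383892, 412 bp outside the gene, so the part inside the gene was listed in guard cells alone. The region chr1:4383465-4384888 is also within 1500 bp of AT1G12855.

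**Figure D2:**
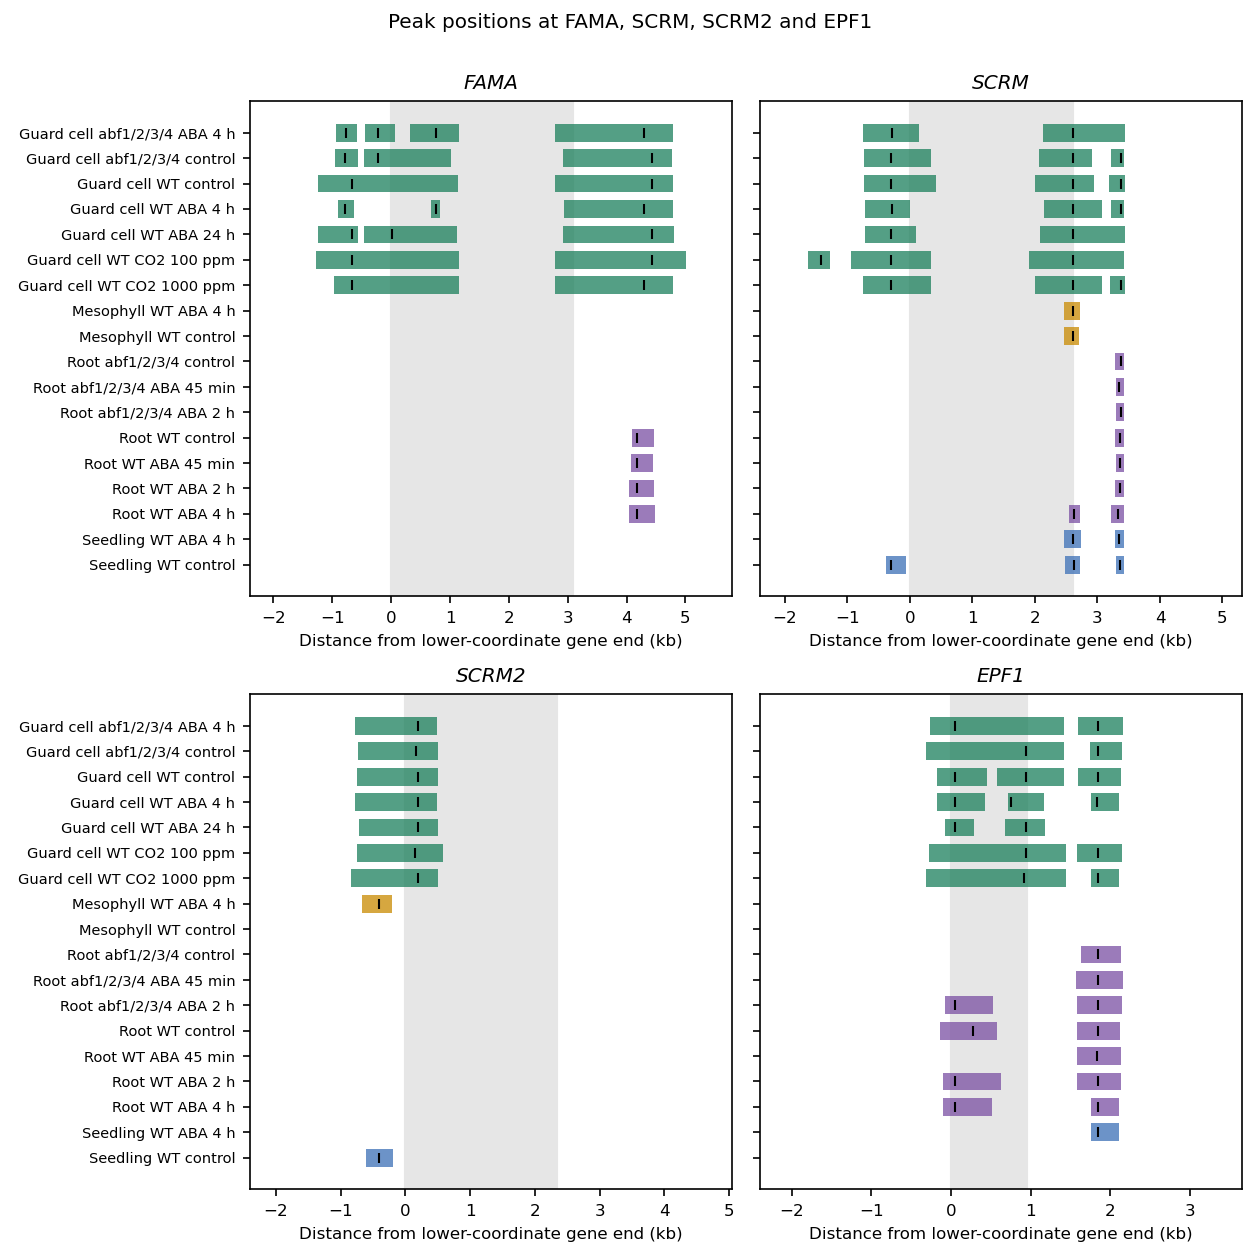
Bars are peaks in each of the 18 lists (vertical axis) at FAMA, SCRM, SCRM2 and EPF1, drawn by distance in kb from the lower-coordinate end of the gene (horizontal axis). Grey marks the gene, black ticks the summits, and colours the tissue (green guard cell, ochre mesophyll, purple root, blue seedling). At FAMA the wide peaks on both sides of the gene are in the 7 guard cell lists, and a narrow one is in the 4 WT root lists.

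SPCH and MUTE, which act before FAMA, had a peak assigned in all 18 lists. At SPCH every list had a peak in chr5:21585011-21585713, with the same summit base, 21585398, in 13 lists. It lay 821 bp outside the lower-coordinate end of SPCH, within 1500 bp of TRY as well, and ranked between 2305 and 6881. Its width was 600 to 700 bp in the 7 guard cell lists and 300 to 657 bp in the other 11, so the ranges overlap. A second SPCH peak, inside the gene near its higher-coordinate end (chr5:21588930-21589502), was found in 3 guard cell lists. It was 396 bp wide in the abf1/2/3/4 control (−log10 p of 4.27), 573 bp in the WT control (7.45) and 292 bp at 1000 ppm CO2 (4.62), and its rank was between 14111 and 18767.

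At MUTE a pair of peaks lay beyond the higher-coordinate end in all 18 lists, with commonest summits 505 bp and 1493 bp from it. The nearer peak was 553 bp wide in the 100 ppm CO2 guard cell list and 261 to 353 bp in the other 17 lists. The farther one had its summit 1460 to 1500 bp from the gene end, at the edge of the 1500 bp window, and ran past the window. This farther peak was wide in root. It measured 291 to 406 bp in the 7 guard cell lists, 197 bp with ABA and 188 bp in the control of mesophyll, and 299 bp with ABA and 321 bp in the control of seedlings, whereas it spanned 1110 to 1158 bp in the 4 WT root lists and 1118 bp in the abf1/2/3/4 root control. With ABA it was 442 bp at 45 min and 616 bp at 2 h in the mutant root. MUTE was the one transcription factor gene of the 5 with its lowest root width above its highest guard cell width at a shared peak.

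TMM, the receptor-like protein gene, had a peak over its higher-coordinate end in every list, in chr1:30129086-30130535, which is also within 1500 bp of CBSX4. It was 662 to 826 bp wide in guard cells, 529 bp with ABA and 354 bp in the control of mesophyll, 466 to 648 bp in the mutant root, 982 to 1450 bp in WT root, and 721 bp with ABA and 655 bp in the control of seedlings. As at MUTE, WT root was the widest. Inside the gene, a weak peak at chr1:30128656-30128963 was listed in the 3 ABA-treated guard cell lists and in no other, and a different one of 278 to 279 bp was listed in the WT root control and after 2 h of ABA.

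EPF1 had 2 regions. The first, chr2:8982542-8984304, covered the gene and was listed in all 7 guard cell lists, in 3 of the 4 WT root lists and in the mutant root after 2 h of ABA. It is also within 1500 bp of LIP1, AT2G20870 and AT2G20873. In guard cells it summed to 867 to 1750 bp, and in root its peak was 602 to 721 bp at ranks 16153 to 20677. The second, chr2:8984436-8985020, with its commonest summit 890 bp beyond the higher-coordinate end, was in 6 guard cell lists, all 7 root lists and the ABA-treated seedlings, with the same summit base in 10 of them. It is within 1500 bp of the neighbouring gene ERF53 as well. No peak lay at EPF1 in either mesophyll list or in the seedling control.

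EPF2 was the member with strong peaks everywhere. Base 12473574 of chromosome 1, inside the gene 400 bp from its higher-coordinate end, was a summit in 16 of the 18 lists, and the best EPF2 peak ranked 222 to 1357 over the 18 lists. No other gene lay within 1500 bp of its regions. What differed was the width. The guard cell lists had 1915 bp at the lowest, 2270 bp in the median and 2505 bp at the highest, with a single peak of 1990 to 2117 bp over the gene in 5 lists. The mesophyll lists had 1165 bp with ABA and 1382 bp in the control, the mutant root lists 1561 to 1774 bp, the WT root lists 1534 to 1595 bp, and the seedling lists 1220 bp with ABA and 1048 bp in the control. In root and in ABA-treated seedlings the same stretch was broken into 3 separate peaks. It was in 2 peaks in the seedling control and in guard cells of both genotypes with ABA for 4 h.

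**Figure D3:**
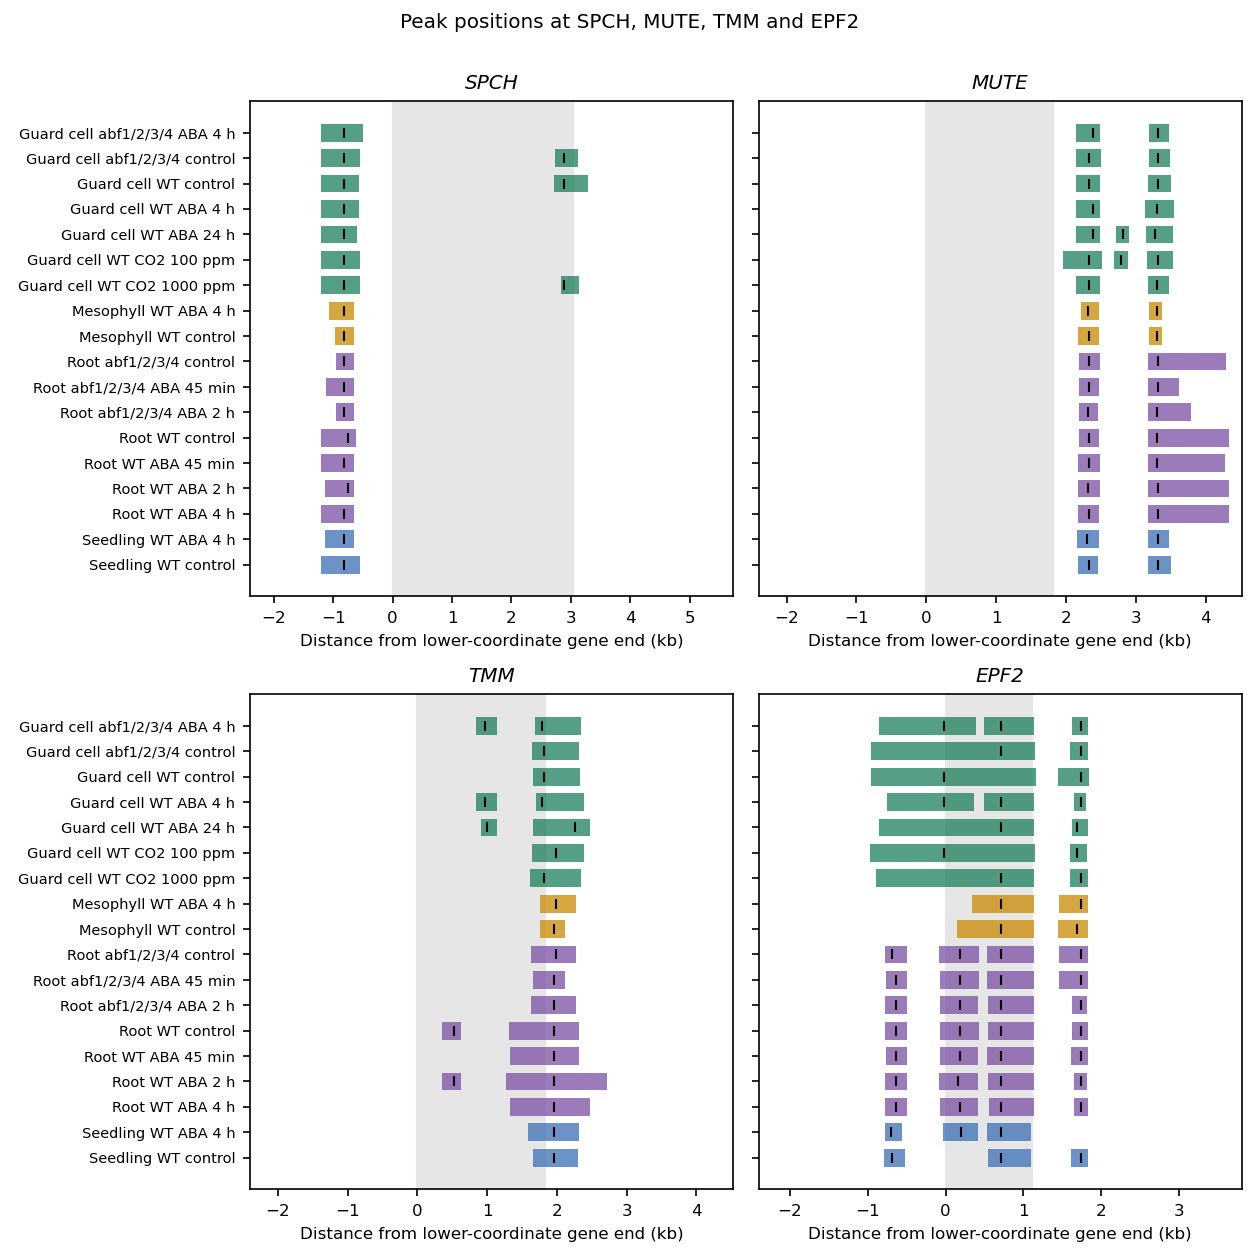
Peaks at SPCH, MUTE, TMM and EPF2 in each of the 18 lists (vertical axis), by distance in kb from the lower-coordinate gene end (horizontal axis), with grey for the gene, black ticks for summits and colours for the tissue (green guard cell, ochre mesophyll, purple root, blue seedling). All 4 genes have a peak in every list, EPF2 has its widest peaks in guard cells, and the far MUTE peak is widest in root.

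The guard cell WT control was then set against the WT controls of the other tissues, the comparison that asks which sites are open in guard cells. A peak was counted as gained when it shared no base with any peak of the other list, and as lost in the reverse case. Against mesophyll, 5 of 8 genes had a gained peak (SPCH, FAMA, SCRM, SCRM2 and EPF1), where 35.8% of all genes did, and none had a lost peak, where 10.6% did. Against root, 4 had a gained peak (SPCH, FAMA, SCRM and SCRM2), where 22.6% did, and TMM had a lost one, where 34.5% did. Against seedlings, 3 had a gained peak (SPCH, FAMA and EPF1), a share near the 33.4% of all genes, and none a lost one, where 9.27% did.

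Widths told the genes apart further. The summed width was at least 2-fold higher in guard cells than in mesophyll at 2 of the 5 members with a peak in both lists (SPCH and SCRM, against 24% of all such genes), than in root at 3 of 7 (SPCH, FAMA and SCRM, against 10.7%) and than in seedlings at 3 of 6 (SCRM, SCRM2 and EPF2, against 20.4%). The median width ratio of the members was 1.92 against mesophyll, where that of all genes was 1.29, 1.61 against root, where it was 0.92, and 2.12 against seedlings, where it was 1.28. A width of at most 1/2 was found at none of the 5 against mesophyll (5.62% of all genes), at 1 of 7 against root (20.1%) and at none of 6 against seedlings (4.31%). The one was MUTE, at 0.462-fold, and TMM was at 0.531-fold. The 2-fold SPCH call against root came through its weak second peak, as the peak found in both lists was 638 bp in guard cells and 598 bp in root. These 3 comparisons share the guard cell control list, and the 8 genes were picked for their role in stomata.

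ABA closes stomata, and its lists were compared with the control of the same tissue and genotype. In WT guard cells after 4 h, TMM gained its intragenic peak (6.79% of all genes gained one) and SPCH lost its second peak (20.7% lost one). After 24 h, MUTE and TMM gained a peak (6.02%) and SPCH and EPF1 lost one (15.3%). In abf1/2/3/4 guard cells after 4 h, TMM again gained a peak (6.66%) and SPCH lost one (11%). So the TMM peak was listed with ABA, and the second SPCH peak without it, in each of these 3 comparisons, of which the 4 h and 24 h WT lists share their control.

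The TMM and MUTE peaks behind these calls were weak, and the EPF1 peak was not, with a −log10 p of 10.38 in the control list, whose median was 9.68. The TMM peak was 308 bp with a −log10 p of 5.88 in abf1/2/3/4 with ABA, 300 bp and 4.81 in WT with ABA for 4 h, and 239 bp and 3.87 with ABA for 24 h, where it ranked 19122 of 19239. With a threshold of 5 on −log10 p the TMM calls in WT after 4 h and 24 h and the SPCH call in the mutant are gone. The second SPCH peak was also absent at 100 ppm CO2, a list without ABA.

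SPCH, FAMA and EPF1 had the lowest width ratios after 4 h of ABA in WT guard cells. SPCH had 634 bp with ABA for 4 h and 600 bp for 24 h, against 1211 bp in the control, through the loss of its second peak. That is 0.524-fold after 4 h, with 8.93% of genes at or below it, and 0.495-fold after 24 h, with 6.08%. FAMA had 2276 bp with ABA for 4 h and 4145 bp for 24 h, against 4381 bp in the control. That is 0.52-fold after 4 h, with 8.74% of genes at or below it, and 0.946-fold after 24 h, close to the median of all genes. The change after 4 h was in the first region, where the control had 1 peak of 2375 bp, the 4 h list had pieces of 272 and 152 bp, and the 24 h list had pieces of 693 and 1578 bp. The second region was 1852 bp after 4 h, 1874 bp after 24 h and 2006 bp in the control. In abf1/2/3/4 the summed width was 3708 bp with ABA and 3714 bp in the control, although the first region was in 3 pieces of 343, 516 and 839 bp with ABA and in 2 of 391 and 1474 bp in the control.

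EPF1 had 1411 bp with ABA for 4 h and 867 bp with ABA for 24 h, against 2028 bp in the WT control. Its second peak, 543 bp with a −log10 p of 10.38 in the control, was 356 bp and 4.66 after 4 h and was not listed after 24 h. At 4 h EPF1 was at 0.696-fold its control width, and 19.7% of genes with a peak in both lists were at or below that. At 24 h it was at 0.428-fold, and 3.85% of 18149 genes were. In abf1/2/3/4 it had 2253 bp with ABA and 2138 bp in the control, with both regions present in each. The difference between genotypes was not tested.

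Markers and list strength moved as well. The 4 h ABA list of WT guard cells had 17891 peaks with a median −log10 p of 7.23, against 20954 and 9.68 in the control, and the summed width of the 4 guard cell markers was 4527 bp with ABA and 10462 bp in the control. Other markers did not all move that way: the summed width was 6951 bp with ABA and 8771 bp in the control at the 4 mesophyll markers, and 2513 bp with ABA and 2645 bp in the control at the 8 root markers. It was 4117 bp with ABA (3 of 5 with a peak) and 2995 bp in the control (2 of 5) at those of other leaf epidermis cells, and 1328 bp with ABA and 1037 bp in the control at the 3 vascular ones. After 24 h the peak count, the median and the guard cell marker width were 19239 peaks, 9.39 and 8587 bp. In abf1/2/3/4 they were 18584 peaks, 7.50 and 9097 bp with ABA and 19864 peaks, 7.92 and 10391 bp in the control. Their part in the widths at SPCH, FAMA and EPF1 was not tested. Over all genes with a peak in both lists, the median width ratio was 0.926 after 4 h, 0.95 after 24 h and 0.99 in the mutant, and over the 8 members it was 0.773, 0.93 and 1.01 in that order. A summed width of at most 1/2 of the control was found at 0 of 8 members after 4 h (7.73% of all genes) and at 2 of 8, SPCH and EPF1, after 24 h (6.26%).

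**Figure D4:**
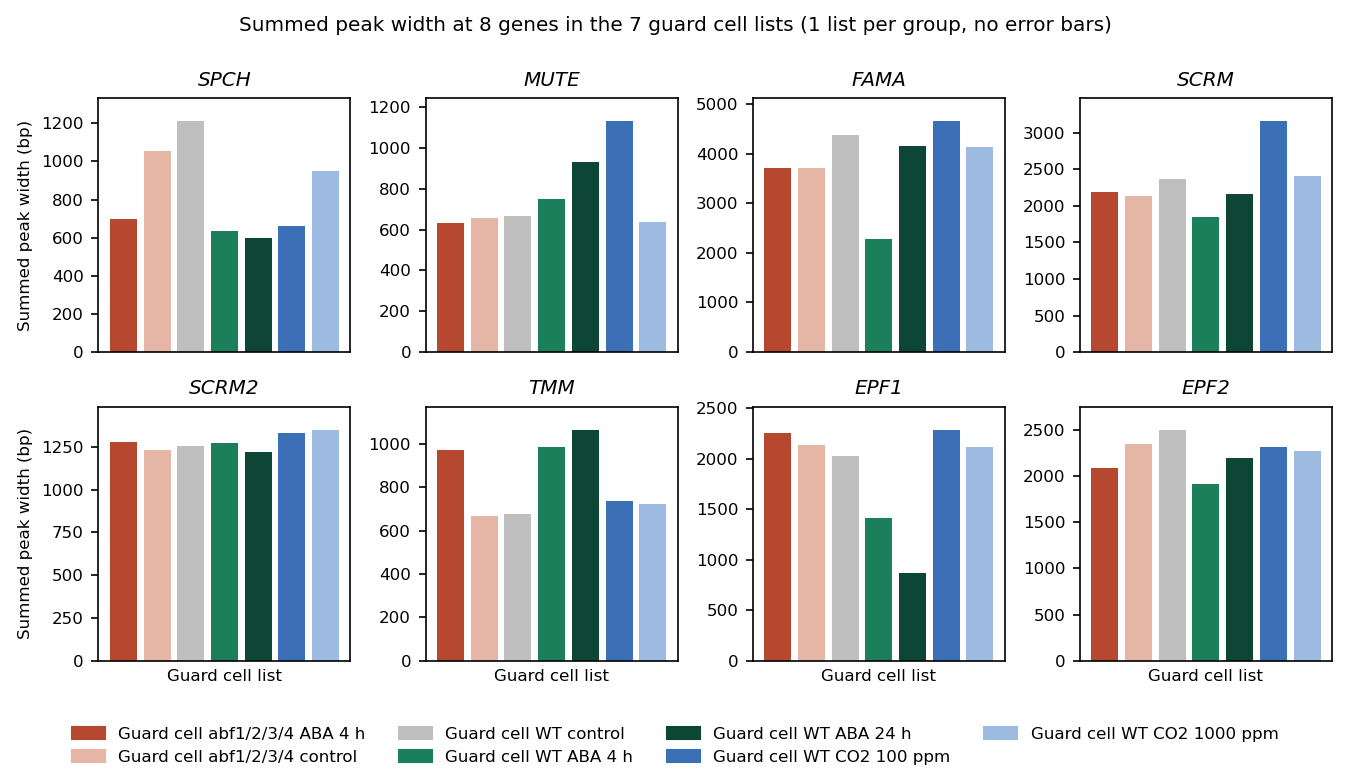
Bars show the summed width of all peaks at each gene in bp (vertical axis, from 0) in the 7 guard cell lists, in the order abf1/2/3/4 ABA 4 h, abf1/2/3/4 control, WT control, WT ABA 4 h, WT ABA 24 h, WT at 100 ppm and WT at 1000 ppm CO2, with 1 list per group and so no error bars. SCRM2 stays between 1220 and 1350 bp, EPF1 is lowest after 24 h of ABA in WT (867 bp), and TMM is at 970 bp or more in the 3 ABA lists.

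In mesophyll with ABA SCRM2 gained its weak peak (7.13% of all genes gained one) and no member lost one (10.2%). In seedlings EPF1 and EPF2 gained a peak (8.65%), and SCRM, SCRM2 and EPF2 lost one (7.14%). All 5 of these seedling peaks had a −log10 p of 3.95 to 5.89, beside list medians of 5.74 with ABA and 5.81 in the control.

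In WT root, after 45 min, none gained a peak (1.49%) and TMM and EPF1 lost one (30% of all genes lost one). After 2 h none gained (19.3%) or lost one (9.58%). After 4 h SCRM gained one (17%) and TMM lost one (17.8%). In abf1/2/3/4 root, none gained (3.28%) or lost (9.19%) a peak after 45 min, and EPF1 gained one after 2 h (4.85%) with none lost (13.2%). The 3 WT comparisons share their control, as do both of the mutant. All of these root peaks were weak. In the WT control the TMM peak had a −log10 p of 5.26 and the EPF1 peak 5.55, beside a list median of 8.04. The gained SCRM peak had 5.45 after 4 h (median 8.60), and the gained EPF1 peak of the mutant had 4.3 after 2 h (median 6.23).

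The abf1/2/3/4 control lists were set against WT to ask what the 4 ABF factors change without added ABA. In guard cells none of the 8 genes gained (1.89%) or lost (10.5%) a peak, and the median width ratio was 0.959, where that of all genes was 0.971. In root none gained one (2.07%), and FAMA, TMM and EPF1 lost one (31.1%). Over the 6 members with a peak in both root lists the median width ratio was 0.74 (0.4 to 1.11), where that of all genes was 0.836. The lost root peaks were weak, with a −log10 p of 5.26 to 5.55 in the WT control, and the mutant root control list was the shorter, with 19277 peaks against 25753 in WT.

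CO2 opens or closes stomata by its level, low CO2 opening them. At 100 ppm, MUTE and SCRM had a peak that 1000 ppm lacked (8.42% of all genes had one) and SPCH lacked its second peak (6.99%). The MUTE peak, 204 bp wide and 962 bp beyond the gene, overlapped the one listed after 24 h of ABA (193 bp), and no other list held it. The SCRM peak, 351 bp wide and 1426 bp outside the lower-coordinate end, was in the 100 ppm list alone. These peaks were weak. At 100 ppm the MUTE peak had a −log10 p of 5.64 and the SCRM peak 6.28, beside a list median of 9.73. The second SPCH peak had 4.62 at 1000 ppm, where the median was 8.65. At 100 ppm SCRM had 3158 bp against 2404 bp and MUTE 1130 bp against 638 bp at 1000 ppm, whereas SPCH had 662 bp against 950 bp. The ratios of the other members were 0.987 to 1.13. The median ratio of the 8 genes was 1.05, where that of all genes was 1.01.

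Of 27 other genes of stomatal development, 22 to 25 had a peak in the guard cell lists, 15 to 16 in mesophyll, 18 to 19 in the mutant root, 20 to 23 in WT root and 20 to 21 in seedlings, beside the shares of all genes given above. Of the 27, 12 had a peak in all 18 lists, where 41.3% of all genes did, and these included the receptor kinase genes ER, ERL1, ERL2 and BAK1. In the guard cell WT control 14 of the 27 had a peak that the mesophyll control lacked (35.8% of all genes), and EPFL6 and MPK3 had a peak in mesophyll that guard cells lacked (10.6%).

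Of the 27, 10 had a peak in the guard cell control and none at all in the mesophyll control, as did 3 of the 8 members (FAMA, SCRM2 and EPF1), against 17.8% of all genes. They were the peptide gene EPFL5, the MAP kinase kinase kinase gene YDA, the polarity genes BASL, POLAR and BRXL2, the transcription factor genes MYB88, HDG2, ATML1 and SOL2, and the D-type cyclin gene CYCD7;1. CYCD7;1, whose product acts in the last division before guard cells form, had a peak in 6 guard cell lists and in no other, 217 bp wide in the control. POLAR had one in 2 guard cell lists alone, 413 bp in the WT control, with a −log10 p of 3.96 at rank 20776 of 20954. In that list CYCD7;1 had 6.18 and SOL2 4.84, below the list median of 9.68. Of the 10 genes, YDA, HDG2 and ATML1 had a peak above that median (13.32, 10.75 and 11.17 at best), and the others had none. The mesophyll control list was shorter, with 15928 peaks.

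With ABA for 4 h in WT guard cells, ER gained a peak (345 bp) and 9 of the 27 genes lost one: ERL1, BASL, POLAR, BRXL2, MYB88, SOL1, SOL2, CYCD7;1 and CYCA2;3. Over all genes 6.79% gained and 20.7% lost a peak. The lost peaks were all weak in the control, with a −log10 p of 3.96 to 6.24 beside a list median of 9.68, and ranked 16400 to 20776 of 20954. The gained ER peak had 4.51 and ranked 15861 of 17891. The widest lost peaks were at SOL1 (869 bp) and MYB88 (634 bp). Summed widths at SOL1 were 774 bp with ABA and 1911 bp in the control, and at MYB88 175 bp with ABA and 881 bp in the control. The lower median and shorter list after 4 h, given above, hold here too.

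For the 3 members with a peak in some lists only, the genes with the most similar pattern were found by the mean absolute difference in rank percentile of the best peak over the 18 lists, where a gene without a peak counts 0. Nearest to FAMA were AT1G62030 (3.79 percentile points), HLS1 (4.21) and AT4G28770 (4.27), where the median over all genes was 42.68. Nearest to SCRM2 were AT2G25770 (2.02) and the neighbours AT5G62840 and AtVEX1 (2.21 each), with a median of 38.16. All 3 had a peak in the 7 guard cell lists and in no other. EPF1 had no close match, with AT1G55430 at 9.36, AT1G17200 at 9.55 and AT4G26820 at 9.79 (median 37.02).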

How the data were processed

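Peak lists of 53 ATAC-seq samples in 18 groups were used as deposited, 1 list per group. How the authors combined the samples of a group is not given in the sources used here, and depth per sample is unknown. The deposited lists hold, for each peak, a score in columns 5 and 7 of the format (column 7 was used to rank in 1 alternative), and −log10 p in column 8 as the authors' caller gave it. Column 9 is empty of values (a negative placeholder throughout) and was not used. The submitters' processing notes name Trim Galore 0.6.5, cutadapt, FastQC, SAMtools, bedtools 2.30, Picard, Genrich, DESeq2 1.26.0, deepTools 3.5.0 and the TAIR10 genome build. Of other columns of values per sample there were 0.

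Coordinates are those of the lists, counted from 1. Gene ends came from the RefSeq table of TAIR10.1, in which all 8 genes, the 27 pathway genes and the markers were found. As a check of the builds, the share of summits near a gene end (150 bp or less) was 35.0% to 51.8%, and 13.4% to 14.4% once they were moved by 5 kb. The table holds no strand, so peaks are placed by the lower-coordinate and higher-coordinate gene end.

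Summits (start plus offset) were assigned within 1500 bp, peaks sharing at least 1 bp counted as shared, and widths of all peaks at a gene were summed. With 1 list per group no test was run, and values stand beside the share of all genes. The steps were tested on simulated data (Python 3.11.15, pandas 2.3.3, numpy 2.4.6, figures with matplotlib 3.10.9). The 8 genes, the pathway list and the markers were chosen with earlier results of these data known. All 8 genes are named. Of the pathway list those are named that differ in presence between the guard cell and mesophyll controls or gain or lose a peak with ABA for 4 h in guard cells, and other named pathway genes were chosen after their values were seen. The 3 most similar genes are named for members with a peak in some lists only. The alternatives were other windows, a stricter threshold, lists of equal size, any base of the peak in the window, an overlap of 50% and a rank by column 7. Motifs in promoters were not analysed here.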

Additional observations from a re-analysis of the deposited data

Results flagged for a closer look

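At 2 genes a peak at the same place came with ABA in one tissue and was missing with ABA in another; none of these differences was tested, each rests on 1 list per group. The EPF1 peak beyond the higher-coordinate gene end was listed in seedlings with ABA for 4 h (−log10 p of 4.17) and not in their control, whereas in WT guard cells it was not listed with ABA for 24 h and had a −log10 p of 10.38 in the control. The times differ, and after 4 h of ABA the guard cells still had this peak, at 4.66. The SCRM2 peak was listed in mesophyll with ABA for 4 h (4.28) and not in the control, whereas in seedlings it was not listed with ABA for 4 h and had 3.95 in the control.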

How the results depend on the processing

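Of 396 counts recomputed under 7 alternatives, 331 kept within 1.5 times the reported count and 65 moved. Summed widths in the WT control and ABA lists of guard cells were recomputed apart from these counts. No paired analysis was possible because each group has 1 list, and for the same reason no replicate could be left out. The cause of each move was not tested. The shares of all genes were not recomputed under the alternatives, so whether a count moved more than that of all genes is unknown. Counts that fell but kept within 1.5 times are not listed below. With a window of 500 bp MUTE had no peak in any guard cell list, and FAMA had none in the guard cell WT control, where its summits lay 658 and 1336 bp from the gene. The FAMA peaks in the highest 10% of the guard cell lists lay 1203 to 1338 bp from the gene, outside that window. With a window of 500 bp, genes with a peak were 5 at 100 ppm CO2, 3 in the mesophyll control, 3 in the WT root control, and 2, 4 and 4 after 45 min, 2 h and 4 h of ABA, 2 in the mutant root control, and 2 and 3 after 45 min and 2 h; 11 pathway genes had one in the mutant root control. Gained peaks were then at 1 gene in seedlings with ABA, 1 in guard cells after 24 h and 0 at 100 ppm CO2, and lost peaks at 1 after 24 h. With 3000 bp, lost peaks were at 1 gene for guard cell against mesophyll, 3 against root and 2 against seedlings. They were at 5 with ABA in seedlings, 4, 2 and 4 in root after 45 min, 2 h and 4 h, 1 in mesophyll, 2 in guard cells after 4 h, 2 in mutant guard cells, 1 in mutant root after 2 h, and for mutant against WT at 1 in guard cells and 5 in root. Gained peaks were at 5 for guard cell against seedlings, 1 and 2 in root after 2 h and 4 h, 3 in guard cells after 4 h, and 1 for mutant against WT guard cells. With a threshold of 5 on −log10 p (11257 to 24170 peaks), gained peaks were at 5 for guard cell against seedlings, 1 in seedlings with ABA, 2 in mesophyll, 0 and 1 in guard cells after 4 h and 24 h, and 0 in mutant root after 2 h. Lost peaks were at 3 in guard cells after 4 h, 0 in mutant guard cells, 2 and 3 in mutant root after 45 min and 2 h, 1 for mutant against WT guard cells and 0 at 100 ppm CO2. With 15345 peaks in each list, lost peaks were at 0 for guard cell against root, 1 and 2 in root after 45 min and 4 h, 3 in guard cells after 4 h, 0 in mutant guard cells, 2 and 2 in mutant root, 2 for mutant against WT guard cells and 0 in root. Gained peaks were at 5 for guard cell against seedlings, 0 in root after 4 h, 0 in guard cells after 24 h, 2 in mutant guard cells, 0 in mutant root after 2 h and 1 at 100 ppm CO2. With an overlap of 50%, lost peaks were at 2 for guard cell against root, 3 in guard cells after 4 h, 2 in mutant guard cells and 1 in mutant root after 45 min, and gained peaks at 6 for guard cell against seedlings and 1 for mutant against WT guard cells. The width at EPF1 after 4 h of ABA was 596 bp with the threshold of 5 and with lists of equal size. After 24 h it was 501 bp with lists of equal size. The EPF1 peaks of the control list had a −log10 p of 10.38 to 15.71 and pass both cuts. These settings could therefore lower only the ABA widths, and they cannot check the difference from the control. Counting any base of the peak and ranking by column 7 moved none. The planned comparison of promoter motifs was not run. With depth unknown, a missing weak peak says only that it was not listed.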

Other observations

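Summits fell on the same base in many lists at some regions and in few at others. The commonest summit was base 21585398 of chromosome 5 at SPCH in 13 lists, base 9835282 of chromosome 3 at SCRM in 10, base 8984704 of chromosome 2 at EPF1 in 10 and base 12473574 of chromosome 1 at EPF2 in 16. At other regions found in all 18 lists it was shared by fewer, 8 and 4 lists at the MUTE peaks and 4 at the TMM peak, and at the second FAMA region it was shared by 3 of 11 lists.

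The peptide gene EPFL9 (stomagen), whose product promotes stomata and is known from mesophyll, had a peak in both mesophyll lists, in 6 of the 7 guard cell lists and in both seedling lists, and in no root list. Its summed width was 385 bp in the guard cell WT control and 440 bp in the mesophyll control. BRXL2 had a peak in all 7 guard cell lists, in 1 root list and in no mesophyll or seedling list. These genes were chosen after their values were seen.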
